A study of Rattus norvegicus with 4 samples.

Results

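The genes described here are 10 genes of the NRF2 and glutathione defence of the cell, Nqo1, Hmox1, Gclm, Gclc, Txnrd1, Slc7a11, Srxn1, Gsr, Gpx2 and Mgst3, chosen by symbol from the feature names of the matrices. Of the 10 symbols, 9 matched, among 30017 symbols over 32623 features, and Srxn1, which encodes sulfiredoxin, is not analysed here. The rule takes the genes by name and uses no measured value, though the genes were chosen with earlier results of these data known. They were measured by droplet single-cell RNA sequencing of the esophagus of male Sprague-Dawley rats, 6 weeks old. Each of the 4 groups is 1 library from the esophagi of 5 pooled rats. In the fractionated groups the esophageal region received X-rays at 7 Gy a day in 5 fractions, and tissue was taken at day 14 (fractionated day 14) or at day 7 (fractionated day 7). A single-dose group received 35 Gy once, and a control group had 5 sham sessions of 0 Gy, both taken at day 7. All 4 tissues were stored cold, shipped, digested with enzymes and cleared of dead cells before capture. With 1 library per group, no spread between animals could be estimated, so the comparisons have no test and no p-value, and the day 14 group has no control of its own day.

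NRF2, encoded by Nfe2l2, is a transcription factor that is held in the cytoplasm and degraded with the help of KEAP1. Oxidants and electrophiles release it, and it then pairs with small MAF proteins on antioxidant response elements. Its known targets import cystine, build and reduce glutathione, reduce thioredoxin and quinones, and break down haem. In squamous epithelia such as the lining of the esophagus, the pathway is known for its part in detoxification and in the maturation of the layers.

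Promoter windows of 300 bases, from 250 before to 50 after the annotated start, were read from RefSeq on the build GRCr8, which differs from the build of the counts, and no other coordinate is used. Windows were found for 8 of the 10 genes, 9 windows in all, without Hmox1 and Gsr. They were searched on both strands for TGACNNNGC, the core letters of an antioxidant response element, which 4038 of 33469 promoter windows in the table, or 12.1%, hold. It was present in the windows of Gclm, Gpx2 and 1 of 2 windows of Txnrd1, once in each, and no match overlapped TGANTCA, the core of an AP-1 site, which 7.33% of all windows hold. These 3 windows are shown because they hold the letters, and that of Slc7a11 because its epithelial level had the largest ratio to control of the 9 genes. Capitals mark the matched letters, which read TGACTAAGC in Gclm, TGACTTAGC in Gpx2 and TGACAAAGC in Txnrd1 on the opposite strand. The first matched base lies at position -172 of the start in Gclm, at -13 in Gpx2 and at -78 in Txnrd1. The windows are chr2:213031885-213032184 on the plus strand (Gclm), chr6:101229984-101230283 on the minus strand (Gpx2), chr7:22755855-22756154 on the minus strand (Txnrd1) and chr2:136668215-136668514 on the minus strand (Slc7a11), each written 5′ to 3′ in the direction of the gene, as the table gives it.
Gclm: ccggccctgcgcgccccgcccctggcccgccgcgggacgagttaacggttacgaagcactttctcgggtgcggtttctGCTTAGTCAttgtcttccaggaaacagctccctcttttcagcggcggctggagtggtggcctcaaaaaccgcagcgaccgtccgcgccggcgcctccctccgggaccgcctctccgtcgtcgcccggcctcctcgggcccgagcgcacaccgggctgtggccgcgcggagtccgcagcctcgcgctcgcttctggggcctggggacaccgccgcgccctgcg
Gpx2: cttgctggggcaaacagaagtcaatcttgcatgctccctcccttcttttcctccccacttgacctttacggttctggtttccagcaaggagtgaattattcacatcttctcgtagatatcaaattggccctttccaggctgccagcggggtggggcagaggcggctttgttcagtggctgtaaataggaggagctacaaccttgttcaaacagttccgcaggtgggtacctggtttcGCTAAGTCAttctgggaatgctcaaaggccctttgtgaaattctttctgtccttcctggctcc
Txnrd1: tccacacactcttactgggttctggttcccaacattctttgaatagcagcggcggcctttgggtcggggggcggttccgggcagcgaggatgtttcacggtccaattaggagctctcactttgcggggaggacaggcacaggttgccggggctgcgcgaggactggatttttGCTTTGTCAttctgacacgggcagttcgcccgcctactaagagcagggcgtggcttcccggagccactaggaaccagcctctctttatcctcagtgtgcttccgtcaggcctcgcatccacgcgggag
Slc7a11: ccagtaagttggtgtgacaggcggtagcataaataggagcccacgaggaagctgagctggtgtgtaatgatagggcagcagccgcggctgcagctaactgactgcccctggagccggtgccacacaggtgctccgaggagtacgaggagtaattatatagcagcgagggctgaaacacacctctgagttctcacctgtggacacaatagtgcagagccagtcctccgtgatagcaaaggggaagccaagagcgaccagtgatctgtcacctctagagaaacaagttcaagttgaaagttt
A match is a description of letters and not a binding site, and the absence of a match in the windows of Slc7a11, Gclc, Mgst3, Nqo1 and Srxn1 says only that these letters are not in these 300 bases.

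The libraries held between 10468 and 12505 barcodes and between 59805782 and 109618791 UMIs (unique molecular identifiers, which count captured transcripts). After filters and removal of called doublets, 9665 cells remained at fractionated day 14, 8885 at fractionated day 7, 9441 in the single-dose library and 11358 in the control. Barcodes above the limit of 20% mitochondrial UMIs made up 3.71%, 16.6%, 15.2% and 5.49% of these libraries in the same order. Any pair of libraries shared 26 to 38 barcodes, at most 0.363% of either. Cells were assigned to a type by marker genes, and 414 epithelial cells were found at fractionated day 14, 6410 at fractionated day 7, 3218 in the single-dose library and 2472 in the control. Levels are given as CPM, which scales the UMIs of a gene to a fixed sum of UMIs over all genes, taken over the cells of a type in a library. All 11 epithelial markers, among them Krt5, Krt14 and Krt13, were detected in these cells of each library, summing to 16458 CPM at fractionated day 14, 13593 CPM at fractionated day 7, 11937 CPM in the single-dose library and 17661 CPM in the control. In the same order, their median depths were 13578, 6657.5, 18508.5 and 15266 UMIs per cell. Fewer than 200 fibroblasts remained at fractionated day 7 (105 cells), so fibroblasts were not compared there.

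The libraries also stood apart in a way that crosses the treatment. The summed level of 15 immediate-early and heat-shock genes, including Fos, Jun, Egr1 and Hspa1a, a list chosen after the data were seen, was 23588 CPM in epithelial cells at fractionated day 14, 647 CPM at fractionated day 7, 2312 CPM in the single-dose library and 24124.5 CPM in the control. Across epithelial, fibroblast, blood endothelial, mural, glial and macrophage cells the list ranged from 23588 to 54616 CPM at fractionated day 14, from 647 to 1238 CPM at fractionated day 7 (5 types, without glia), from 2312 to 4504 CPM in the single-dose library and from 24124.5 to 83674 CPM in the control. Fractionated day 14 and control were high in each of these types, and both irradiated day 7 libraries were low. The part of this split in the results was not tested, and it cannot be told apart from irradiation in the comparisons of a day 7 irradiated library with the control. Fractionated day 14 against fractionated day 7 also lies across the split, which cannot be told apart from time there. Values are also given for fractionated day 14 against control, both high, and for fractionated day 7 against the single dose, both low but with the list lower at fractionated day 7.

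In the epithelium, Slc7a11, the cystine importer that feeds glutathione synthesis, was higher in both irradiated day 7 libraries than in the control, while most of the other genes were level or lower there. Hmox1 was the gene that stood at least 2-fold higher at fractionated day 14. Gpx2, Gsr and Mgst3 differed at least 2-fold between the fractionated and the single dose at the same day. Ratios below are log2 ratios of CPM with exact 95% intervals from the counts. The intervals cover counting error only, and a value is called higher or lower when the ratio is at least 2-fold with at least 20 UMIs over both libraries.

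**Figure D1:**
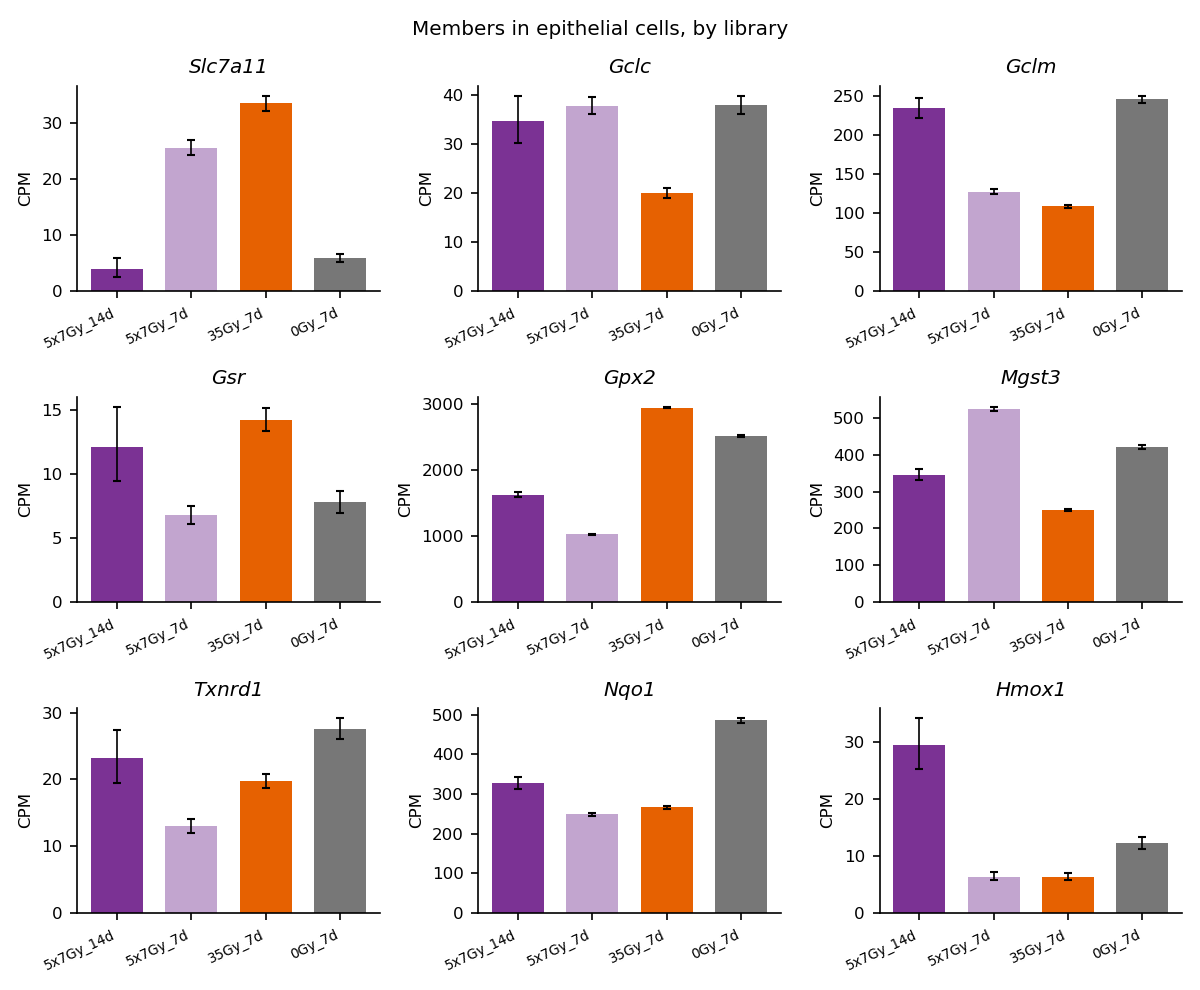
Levels of the 9 genes in epithelial cells (CPM on the y axis, from 0) in each library on the x axis. Bars are the level of 1 library and error bars its exact 95% Poisson interval, for counting error only. Slc7a11 is high in the fractionated day 7 and single-dose libraries, at 25.5 and 33.4 CPM, and Hmox1 is high at fractionated day 14, at 29.5 CPM.

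Slc7a11 encodes xCT, the light chain of the cystine and glutamate exchanger. In epithelial cells it stood at 3.92 CPM (23 UMIs) at fractionated day 14, 25.5 CPM (1291 UMIs) at fractionated day 7, 33.4 CPM (2352 UMIs) in the single-dose library and 5.82 CPM (247 UMIs) in the control. Both irradiated day 7 libraries were high, and fractionated day 14 and control were low. Against the control the level was 4.38-fold higher at fractionated day 7 (log2 ratio 2.13, interval 1.93 to 2.33) and 5.74-fold higher after the single dose (2.52, 2.33 to 2.72). At fractionated day 14 the ratio to control was -0.57, with an interval of -1.26 to 0.05 that includes no difference. Fractionated day 14 was 6.51-fold below fractionated day 7 (log2 ratio -2.70, interval -3.37 to -2.11). The pattern is the reverse of that of the immediate-early list, which was low in the 2 libraries where Slc7a11 was high.

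The layers of the epithelium differed in where Slc7a11 was high. Basal cells, the dividing layer on the basement membrane, held 2.51 CPM at fractionated day 14, 11.5 CPM at fractionated day 7, 33.1 CPM in the single-dose library and 2.08 CPM in the control. Suprabasal cells, the maturing layer above, held 8.85 CPM at fractionated day 14, 41.0 CPM at fractionated day 7, 32.8 CPM in the single-dose library and 8.75 CPM in the control. The suprabasal layer was above the basal layer at fractionated day 7 (log2 ratio 1.83, interval 1.63 to 2.03), at fractionated day 14 (1.82, 0.47 to 3.16) and in the control (2.07, 1.56 to 2.62). In the single-dose library the layers were level, at -0.01 with an interval of -0.15 to 0.12. Against the control, basal Slc7a11 was 15.9-fold higher after the single dose (3.99, 3.52 to 4.50), and the control value rests on 37 UMIs. At fractionated day 7 basal Slc7a11 was below the single dose by a log2 ratio of -1.52 (interval -1.71 to -1.33). Neutrophils, which reached 50 cells in the single-dose library alone (837 cells), held Slc7a11 at 38.8 CPM (36 UMIs). The 9 neutrophil markers summed to 1079 CPM in the epithelial cells of the single-dose library, against 211986 CPM in its neutrophils. In epithelial cells of the other libraries they summed to 9.04 CPM at fractionated day 14, 14.4 CPM at fractionated day 7 and 9.45 CPM in the control.

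**Figure D2:**
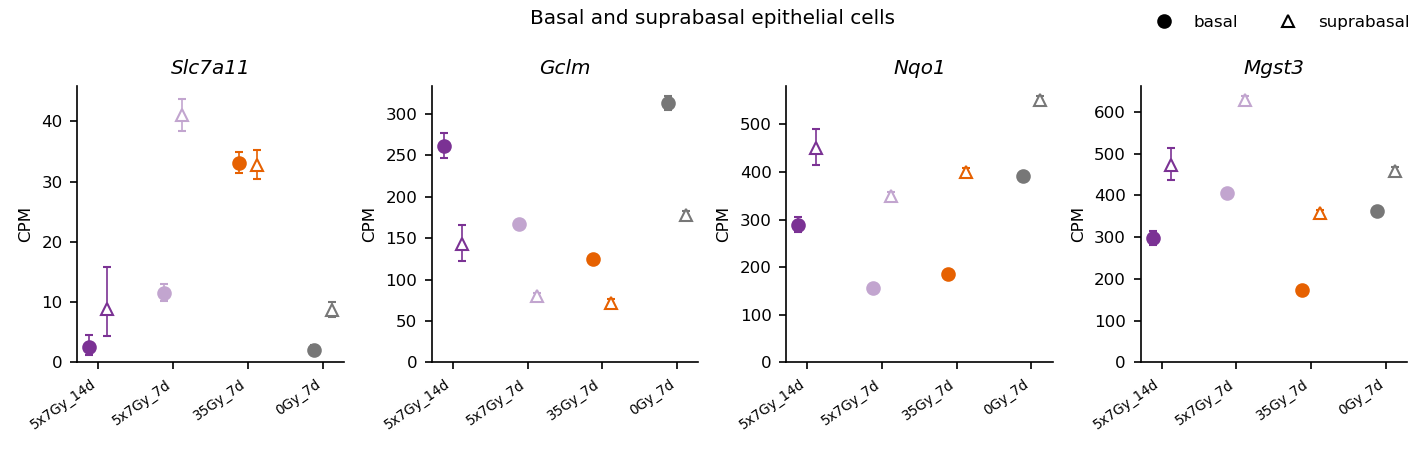
Levels of Slc7a11, Gclm, Nqo1 and Mgst3 (CPM on the y axis) in basal cells (filled circles) and suprabasal cells (open triangles) of each library. Error bars are exact 95% Poisson intervals, for counting error only. Slc7a11 is level between layers in the single-dose library alone, at 33.1 CPM in basal and 32.8 CPM in suprabasal cells, and Gclm lies higher in basal cells of every library.

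Gclc and Gclm encode the catalytic and the modifier subunit of glutamate-cysteine ligase, the rate-limiting enzyme of glutathione synthesis. Gclc stood at 34.8 CPM at fractionated day 14, 37.8 CPM at fractionated day 7, 19.97 CPM in the single-dose library and 38.0 CPM in the control, so that the single-dose library was low and the others lay close together. The single-dose ratio to control was -0.93 (interval -1.03 to -0.83), short of 2-fold over the whole epithelium and past it in basal cells (-1.20, -1.33 to -1.07). Gclm stood at 234 CPM at fractionated day 14, 127 CPM at fractionated day 7, 108 CPM in the single-dose library and 245 CPM in the control. It was low in both irradiated day 7 libraries, by -0.95 at fractionated day 7 (interval -0.99 to -0.90) and by -1.18 after the single dose (-1.22 to -1.14), and level at fractionated day 14 (-0.07, -0.15 to 0.01). Without epithelial cells that held a UMI of the cycling genes Mki67 or Top2a, the single-dose ratio of Gclm was -0.98, just short of 2-fold. In every library both subunits were higher in basal than in suprabasal cells, with suprabasal over basal ratios of -0.98, -1.27, -0.83 and -1.17 for Gclc and -0.87, -1.05, -0.78 and -0.82 for Gclm at fractionated day 14, fractionated day 7, the single dose and control.

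Gsr encodes glutathione reductase, which returns oxidised glutathione to its reduced form. Its epithelial level was 12.1 CPM at fractionated day 14, 6.78 CPM at fractionated day 7, 14.2 CPM in the single-dose library and 7.80 CPM in the control. Fractionated day 14 and the single dose were high and the others low, with ratios to control of 0.63 (interval 0.24 to 1.01) at fractionated day 14, -0.20 (-0.43 to 0.02) at fractionated day 7 and 0.87 (0.69 to 1.05) after the single dose. The fractionated day 7 level was below the single dose by -1.07 (-1.25 to -0.89). That ratio was -0.50 without epithelial cells holding a UMI of Mki67 or Top2a, and -0.74 with every cell given the same weight. Such cycling cells made up 32.1% of epithelial cells at fractionated day 14, 16.5% at fractionated day 7, 47.2% in the single-dose library and 32.2% in the control.

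Gpx2 encodes a glutathione peroxidase of epithelia, and Mgst3 a membrane-bound glutathione transferase and peroxidase. Epithelial Gpx2 stood at 1626 CPM at fractionated day 14, 1026 CPM at fractionated day 7, 2944 CPM in the single-dose library and 2518 CPM in the control. Fractionated day 7 was the low library, 2.46-fold below control (log2 ratio -1.30, interval -1.31 to -1.28) and 2.87-fold below the single dose (-1.52, -1.53 to -1.51). Epithelial Mgst3 stood at 346 CPM at fractionated day 14, 524 CPM at fractionated day 7, 250 CPM in the single-dose library and 422 CPM in the control. Here fractionated day 7 was the high library and the single dose the low one, a ratio of 1.07 (1.04 to 1.10) between them. That ratio was 0.97 without cycling cells and 0.99 with cells weighted equally. Mgst3 was higher in suprabasal than in basal cells of every library, by 0.67, 0.63, 1.04 and 0.34 at fractionated day 14, fractionated day 7, the single dose and control. Of the pair, then, Gpx2 was lower and Mgst3 higher at fractionated day 7 than after the single dose, in basal cells (-1.78 and 1.22) as in the whole epithelium.

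Txnrd1 encodes thioredoxin reductase, which keeps thioredoxin reduced with NADPH. In epithelial cells it stood at 23.2 CPM at fractionated day 14, 12.99 CPM at fractionated day 7, 19.7 CPM in the single-dose library and 27.6 CPM in the control. Fractionated day 7 was lowest, 2.13-fold below control (log2 ratio -1.09, interval -1.23 to -0.95). The ratio was -0.89 without cycling cells and -0.85 with cells weighted equally, both short of 2-fold. The ratio after the single dose was -0.49 (-0.60 to -0.37), and at fractionated day 14 it was -0.25 (-0.52 to 0.01).

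Nqo1 encodes a quinone reductase that is a standard marker of NRF2 activity. Its epithelial level was 328 CPM at fractionated day 14, 249 CPM at fractionated day 7, 266 CPM in the single-dose library and 486 CPM in the control. All 3 irradiated libraries were below the control, with ratios of -0.57 (interval -0.64 to -0.50) at fractionated day 14, -0.97 (-0.999 to -0.935) at fractionated day 7 and -0.87 (-0.90 to -0.84) after the single dose. None of these is 2-fold over the whole epithelium, but in basal cells the ratios were -1.33 at fractionated day 7 and -1.08 after the single dose. With every cell weighted equally the epithelial ratios were -1.14 and -1.03 in these libraries, past 2-fold, and -1.01 in the single-dose library under median-of-ratios scaling. Suprabasal cells held more Nqo1 than basal cells in every library, by 0.64 at fractionated day 14, 1.17 at fractionated day 7, 1.11 after the single dose and 0.49 in the control. After thinning each cell to 1000 UMIs, 23.6% of epithelial cells held an Nqo1 UMI at fractionated day 14, 16.2% at fractionated day 7, 18.0% in the single-dose library and 31.1% in the control. Without thinning the shares were 79.2%, 54.5%, 76.2% and 90.1% in these libraries, and in fibroblasts the thinned share was 5.05% at fractionated day 14, 3.80% at fractionated day 7, 3.36% in the single-dose library and 2.50% in the control.

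Hmox1 encodes the inducible haem oxygenase, which breaks haem down to biliverdin, iron and carbon monoxide. In epithelial cells it stood at 29.5 CPM at fractionated day 14, 6.36 CPM at fractionated day 7, 6.35 CPM in the single-dose library and 12.2 CPM in the control. Fractionated day 14 was 2.42-fold above control (log2 ratio 1.28, interval 1.02 to 1.53), and both irradiated day 7 libraries were below it by a ratio of -0.94, short of 2-fold (-1.14 to -0.73 for fractionated day 7 and -1.13 to -0.75 for the single dose). With the stricter cell filter those 2 ratios were -1.02 each. Beside these values, the 10 macrophage markers summed to 146 CPM in epithelial cells at fractionated day 14, 24.7 CPM at fractionated day 7, 137 CPM in the single-dose library and 29.1 CPM in the control, with none of the 10 at 0. Their part in the Hmox1 level was not tested.

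In each epithelial comparison, those of the 9 genes that passed 2-fold were counted beside the share of all genes. At fractionated day 14 against control, 1 of the 9 genes in the epithelium was at least 2-fold higher and 0 lower, where 8.27% of 11900 genes were higher and 5.38% lower. The median ratio of the 9 was -0.25, beside 0.03 over all genes. Fractionated day 7 against control had 1 higher and 2 lower, beside 11.6% and 12.4% of all genes, with medians of -0.94 over the 9 and 0.04 over all genes. The single dose against control had 1 higher and 1 lower, beside 9.82% and 10.6%, with medians of -0.75 and 0.16. Fractionated day 7 against the single dose had 1 higher and 2 lower, beside 8.02% and 13.4%, with medians of -0.10 and -0.07. Fractionated day 14 against fractionated day 7 had 1 higher and 1 lower, beside 15.1% and 12.6%, with medians of 0.66 and -0.01. All 9 genes passed the minimum of 20 UMIs in each of these comparisons. The 3 comparisons with the control share that library, and the comparisons overlap in the fractionated day 7 library too.

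Basal cells carried more of the values past 2-fold than suprabasal cells. In basal cells, fractionated day 14 against control had 1 of the 9 genes higher and 0 lower, beside 5.34% and 4.24% of all genes. Fractionated day 7 against control had 1 higher and 4 lower in basal cells (11.7% and 12.2% of all genes) and 1 higher and 2 lower in suprabasal cells (11.0% and 12.8%). The 4 that were lower in basal cells were Nqo1, Hmox1, Txnrd1 and Gpx2. After the single dose 1 was higher and 5 were lower in basal cells (10.2% and 10.1%), the 5 being Nqo1, Hmox1, Gclm, Gclc and Mgst3, and 2 were higher and 1 lower in suprabasal cells (8.67% and 10.2%). The median basal ratio over the 9 was -1.07 after the single dose, beside 0.17 over all genes, and -0.91 at fractionated day 7, beside 0.05. Fractionated day 7 against the single dose had 2 higher and 3 lower in basal cells (8.37% and 13.2%) and 0 higher and 1 lower in suprabasal cells (7.38% and 11.3%). In basal cells fractionated day 14 against fractionated day 7 had 2 higher and 1 lower (12.1% and 11.8%), with Hmox1 and Gpx2 higher and Slc7a11 lower. Suprabasal cells numbered 94 at fractionated day 14 and were not compared there.

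**Figure D3:**
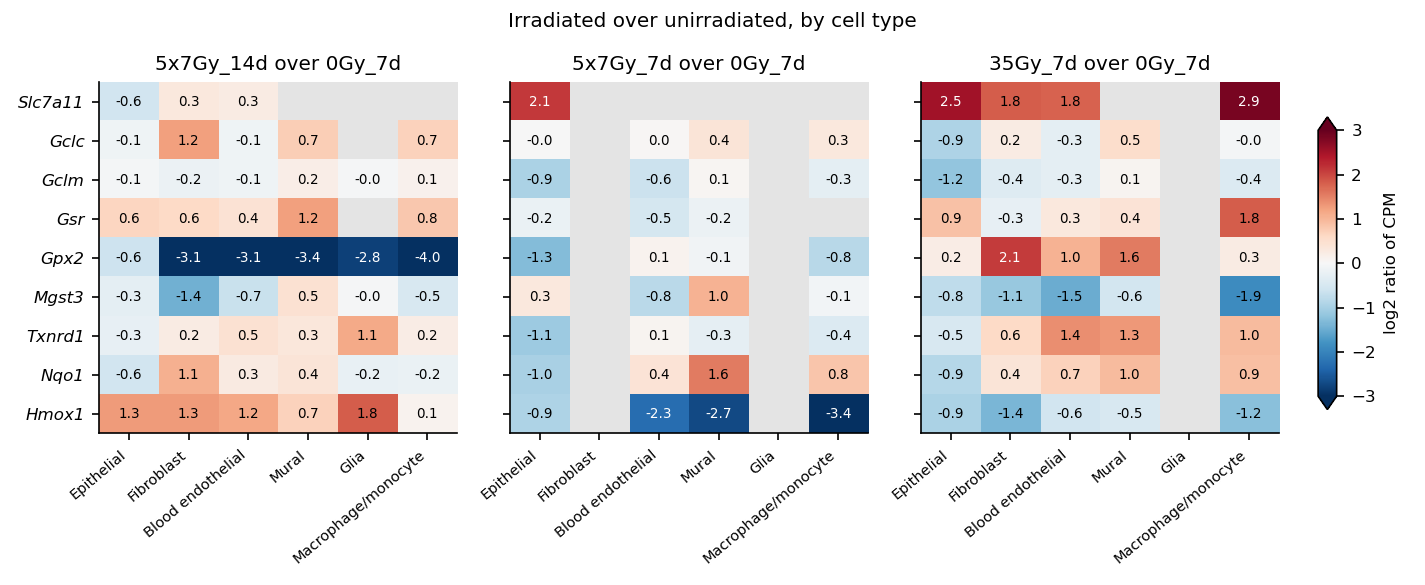
Log2 ratios of CPM over the control for fractionated day 14, fractionated day 7 and the single dose (panels, left to right), with genes in rows by role and cell types in columns. Grey marks pairs with fewer than 200 cells or 20 UMIs, and colours stop at 3 on either side. Slc7a11 stands at 2.13 and 2.52 in the epithelium of the 2 day 7 libraries, and Hmox1 is above control in the fractionated day 14 panel.

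The genes that regulate NRF2 gave values on the small MAF partners and on NRF2 itself. Of 15 listed genes, 14 passed the UMI minimum at fractionated day 14, with 0 higher and 3 lower than control, and 15 passed in each day 7 comparison, with 0 higher and 4 lower at fractionated day 7 and after the single dose alike. The shares of all genes higher and lower than control were those given above, 8.27% and 5.38% at fractionated day 14, 11.6% and 12.4% at fractionated day 7 and 9.82% and 10.6% after the single dose. Maff, a small MAF protein that is itself an immediate-early type gene, stood at 31.0 CPM at fractionated day 14, 1.54 CPM at fractionated day 7, 1.66 CPM in the single-dose library and 72.1 CPM in the control. Mafk stood at 23.4 CPM at fractionated day 14, 3.70 CPM at fractionated day 7, 3.96 CPM in the single-dose library and 24.0 CPM in the control. Both follow the side of the split on which a library lies. Nfe2l2 was at 195 CPM at fractionated day 14, 181 CPM at fractionated day 7, 189 CPM in the single-dose library and 223 CPM in the control, and Keap1 at 33.2, 25.9, 30.7 and 35.9 CPM in the same libraries, which is within 2-fold throughout. Nfe2l2 and Keap1 fall outside the rule for naming genes and were chosen after their values were seen.

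Around glutathione synthesis, 8 of the 10 matched genes of synthesis and turnover passed in the single-dose epithelium, 2 of them at least 2-fold above control and 0 below, with a median of 0.40 beside 0.16 over all genes and shares of 9.82% and 10.6%. Cbs, which starts the route from homocysteine to cysteine, stood at 21.4 CPM after the single dose and 3.98 CPM in the control (log2 ratio 2.43, interval 2.19 to 2.66). It was also above control at fractionated day 14, at 8.69 CPM (1.13, 0.64 to 1.59), and at fractionated day 7, at 6.27 CPM (0.65, 0.38 to 0.93). Chac1, which degrades glutathione, was the other gene past 2-fold after the single dose, at 0.682 CPM there and 0.306 CPM in the control (1.15, 0.25 to 2.16). Chac1 was named after its values were seen. Gss, glutathione synthetase, was just short of 2-fold, at 42.8 CPM after the single dose and 21.4 CPM in the control (0.997, 0.89 to 1.11). Slc3a2, the heavy chain that carries xCT to the membrane, did not follow Slc7a11, at 180 CPM at fractionated day 14, 70.2 CPM at fractionated day 7, 166 CPM in the single-dose library and 130 CPM in the control. In the fractionated day 7 epithelium 0 of 8 genes of this list passed 2-fold in either direction against control, where 11.6% of all genes were higher and 12.4% lower.

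Slc7a11 is also a known target of ATF4, the transcription factor of the amino acid response. Of 10 listed genes, Atf4 itself and ATF4 targets, 1 was higher and 4 were lower at fractionated day 7 than in the control, and 2 were higher and 3 lower after the single dose. Of all genes, 11.6% and 12.4% were higher and lower at fractionated day 7 and 9.82% and 10.6% after the single dose. Asns, asparagine synthetase, was at least 2-fold above the control level of 2.55 CPM in each irradiated library. It stood at 19.2 CPM after the single dose (2.92, 2.63 to 3.21). The level was 6.80 CPM at fractionated day 7 (1.42, 1.10 to 1.74) and 6.48 CPM at fractionated day 14 (1.35, 0.77 to 1.89). Atf4 itself, among the lower genes at fractionated day 7 and after the single dose, stood at 388 CPM at fractionated day 14, 94.9 CPM at fractionated day 7, 229 CPM after the single dose and 460 CPM in the control. Fractionated day 14 and control were the higher libraries, as for the immediate-early list, and the part of that split was not tested. The list as a whole had a median of -0.79 at fractionated day 7 and -0.18 after the single dose, beside 0.04 and 0.16 over all genes.

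Among enzymes that supply NADPH and remove superoxide and peroxide, the 7 matched genes of NADPH supply included 2 that were higher and 1 that was lower at fractionated day 7 than in the control (11.6% and 12.4% of all genes). Catalase, encoded by Cat, stood at 171 CPM at fractionated day 7 and 54.6 CPM after the single dose (1.65, 1.60 to 1.71). Sod2, the mitochondrial superoxide dismutase, stood at 412 CPM at fractionated day 14, 118 CPM at fractionated day 7, 363 CPM in the single-dose library and 453 CPM in the control. Over the 9 pathway lists, 8 genes were higher and 17 lower of 108 that passed at fractionated day 7, 9 and 17 of 108 after the single dose and 4 and 6 of 106 at fractionated day 14, each against the control. Of all genes, 11.6% were higher and 12.4% lower at fractionated day 7, 9.82% and 10.6% after the single dose and 8.27% and 5.38% at fractionated day 14. The medians over the pathway lists, -0.10, -0.03 and 0.00, stand beside 0.04, 0.16 and 0.03 over all genes.

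Outside the epithelium, Hmox1 differed at least 2-fold from the control in macrophages, fibroblasts, blood endothelial cells, mural cells and glia, each in at least 1 irradiated library. Macrophages and monocytes, which degrade haem from red cells, held it at 287 CPM at fractionated day 14, 25.7 CPM at fractionated day 7 (17 UMIs), 112 CPM in the single-dose library and 266 CPM in the control. Fractionated day 14 and control were high, and the ratio to control was -3.38 at fractionated day 7 (interval -4.18 to -2.67) and -1.25 after the single dose (-1.43 to -1.06). Cells with resident macrophage markers gave the same order, at 344 CPM at fractionated day 14, 38.2 CPM at fractionated day 7, 183 CPM in the single-dose library and 332 CPM in the control. Cells with infiltrating markers held 78.4 CPM at fractionated day 14, 13.1 CPM at fractionated day 7 and 102 CPM in the single-dose library. They made up 122 cells at fractionated day 14, 149 at fractionated day 7 and 2293 in the single-dose library, beside 826, 157 and 222 resident cells.

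In stromal cells, Hmox1 at fractionated day 14 was above the control. Fibroblasts held 68.2 CPM at fractionated day 14, 10.9 CPM in the single-dose library and 28.1 CPM in the control, with ratios to control of 1.28 (interval 1.17 to 1.40) and -1.37 (-1.82 to -0.95). Blood endothelial cells held 47.1 CPM at fractionated day 14, 4.29 CPM at fractionated day 7 (11 UMIs), 14.1 CPM in the single-dose library and 21.1 CPM in the control. Their ratio to control was 1.16 (0.87 to 1.47) at fractionated day 14 and -2.29 (-3.34 to -1.40) at fractionated day 7. Glia held 39.9 CPM at fractionated day 14 and 11.3 CPM in the control (1.82, 0.82 to 3.005), where the immediate-early list was 54616 CPM at fractionated day 14 and 83674 CPM in the control. Mural cells, the smooth muscle and pericytes of vessels and wall, held 30.5 CPM at fractionated day 14, 2.88 CPM at fractionated day 7 (2 UMIs), 13.6 CPM in the single-dose library and 18.8 CPM in the control. The 10 macrophage markers also summed higher at fractionated day 14 than in the control in these cells, at 167 and 43.1 CPM in fibroblasts, 251 and 50.2 CPM in blood endothelial cells, 290 and 36.3 CPM in glia and 226 and 49.9 CPM in mural cells. None of the 10 was at 0 except 2 in control glia, and their part in the Hmox1 levels was not tested. Fractionated day 7 was also below the single dose, by -2.13 (-2.91 to -1.45) in macrophages, -1.72 (-2.79 to -0.78) in blood endothelial cells and -2.24 (-5.35 to -0.25) in mural cells, where the immediate-early list was lower at fractionated day 7 too. It summed to 785 CPM at fractionated day 7 and 4504 CPM after the single dose in macrophages, 1238 and 3339 CPM in blood endothelial cells and 678 and 4316 CPM in mural cells, and its part was not tested.

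**Figure D4:**
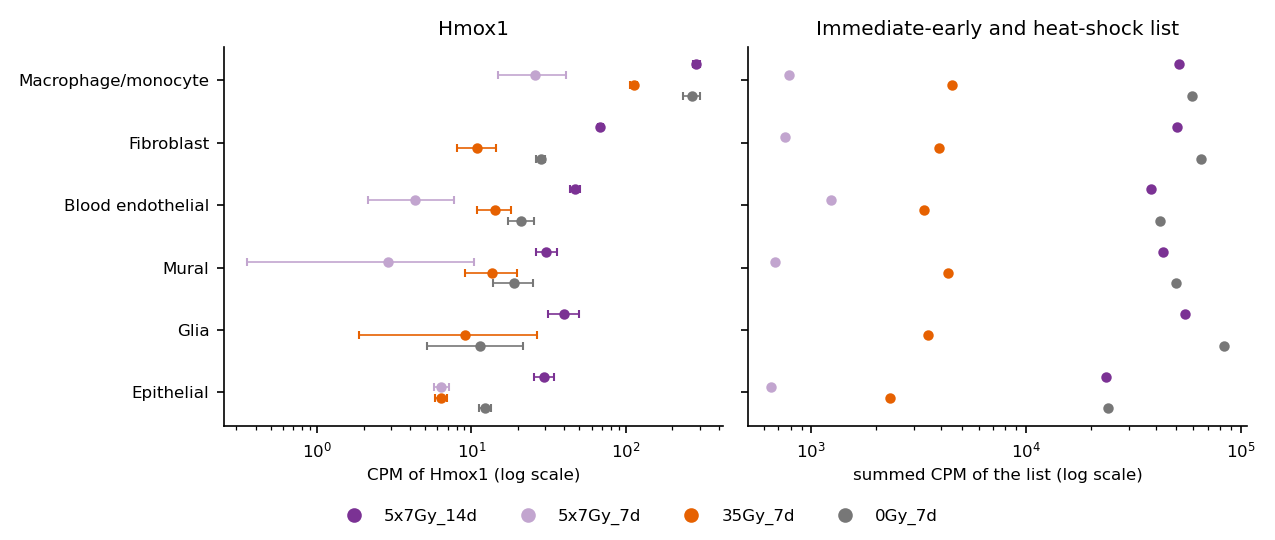
Left, Hmox1 (CPM, log scale) by cell type and library, with exact 95% Poisson intervals for counting error only and points left out where the count is 0 or cells are fewer than 50. Right, the summed level of 15 immediate-early and heat-shock genes (CPM, log scale) in the same cells. Both are lower in the irradiated day 7 libraries than at fractionated day 14 in the types shown, and fractionated day 14 exceeds control for Hmox1 in fibroblasts, at 68.2 and 28.1 CPM.

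Txnrd1 was at least 2-fold higher after the single dose than in the control in blood endothelial and mural cells. Blood endothelial cells held 91.5 CPM at fractionated day 14, 70.7 CPM at fractionated day 7, 176 CPM in the single-dose library and 66.5 CPM in the control. The single dose was high, at a ratio of 1.40 to control (interval 1.22 to 1.59), and fractionated day 7 was below it by -1.32 (-1.56 to -1.08). Mural cells held 48.3 CPM at fractionated day 14, 31.7 CPM at fractionated day 7, 93.0 CPM in the single-dose library and 38.0 CPM in the control, a single-dose ratio of 1.29 (0.93 to 1.66). Macrophages and monocytes held 40.04 CPM at fractionated day 14, 25.7 CPM at fractionated day 7, 66.3 CPM in the single-dose library and 34.3 CPM in the control, and neutrophils of the single-dose library 178 CPM. Neutrophil markers summed to 1718 CPM in the blood endothelial cells of the single-dose library and 5.91 CPM in those of the control, with 2 and 6 of the 9 markers at 0, and their part was not tested. In epithelial cells the same gene was lower after the single dose than in the control, as given above.

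Mgst3 was below control after the single dose in each of the 5 cell types compared, past 2-fold in 3 of them. The single-dose and control levels were 60.4 and 169 CPM in blood endothelial cells (ratio -1.48, interval -1.69 to -1.28), 21.7 and 47.7 CPM in fibroblasts (-1.14, -1.45 to -0.84) and 17.8 and 65.6 CPM in macrophages and monocytes (-1.89, -2.28 to -1.47). In the same order, the 11 epithelial markers summed to 445 and 315 CPM, 592 and 261 CPM and 464 and 465 CPM in these cells. They summed to 11937 and 17661 CPM in epithelial cells, and the part of epithelial RNA in these Mgst3 levels was not tested. Mural cells, where Mgst3 stood at 493 CPM at fractionated day 14, 739 CPM at fractionated day 7, 244 CPM in the single-dose library and 360 CPM in the control, gave a ratio of 1.60 (1.42 to 1.78) for fractionated day 7 over the single dose, which was 0.97 with every cell weighted equally. The mural ratio of fractionated day 7 to control, 1.04, was 0.63 with equal weights and 0.83 under median-of-ratios scaling, both short of 2-fold. The macrophage ratio of fractionated day 7 to the single dose was 1.80 (1.29 to 2.28). These macrophage sums hold different cells, with 149 infiltrating and 157 resident cells at fractionated day 7, 2293 and 222 after the single dose and 202 resident cells of 251 in the control, and the part of that difference was not tested. Resident cells held Mgst3 at 54.3 CPM at fractionated day 14, 76.3 CPM at fractionated day 7, 34.9 CPM in the single-dose library and 81.7 CPM in the control, and infiltrating cells at 16.3, 45.7 and 14.9 CPM in the 3 irradiated libraries. In resident cells the single-dose ratio to control was -1.23 (-1.77 to -0.68). Within the single-dose library infiltrating cells were below resident cells by the same -1.23 (-1.67 to -0.77). Fibroblasts at fractionated day 14 held 17.6 CPM, against 47.7 CPM in the control (-1.44, -1.58 to -1.31). Fractionated day 7 thus held the higher Mgst3 level of the 2 doses in epithelial cells, mural cells and macrophages. In blood endothelial cells, which were also compared, Mgst3 was not at least 2-fold higher at fractionated day 7 than after the single dose.

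In fibroblasts at fractionated day 14, Gclc was also above control, at 25.6 CPM beside 10.9 CPM (ratio 1.24, interval 1.05 to 1.42), and Nqo1 at 59.5 CPM beside 28.6 CPM (1.06, 0.94 to 1.17). The Nqo1 ratio was 0.64 with called doublets kept and 0.83 with cells weighted equally. The median ratio of the 9 genes in these fibroblasts was 0.32, beside 0.07 over all genes. In mural cells at fractionated day 7, Nqo1 stood at 64.8 CPM (45 UMIs) and at 22.1 CPM in the control (1.55, 0.95 to 2.15), the opposite direction to the epithelium. Gclm differed by less than 2-fold from the control outside the epithelium in each comparison made. Gsr outside the epithelium was counted thinly, as in macrophages, where 10.4 CPM (139 UMIs) after the single dose stood beside 2.94 CPM (3 UMIs) in the control (1.82, 0.24 to 4.12).

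Counts of the genes past 2-fold outside the epithelium are given beside the share of all genes past 2-fold, in brackets, and Gpx2 enters each of them. At fractionated day 14 against control, fibroblasts had 3 higher (8.36%) and 2 lower (4.43%), blood endothelial cells 1 higher (5.39%) and 1 lower (4.89%), mural cells 1 higher (7.54%) and 1 lower (2.47%), glia 2 higher (11.1%) and 1 lower (2.46%), and macrophages 0 higher (6.96%) and 1 lower (5.07%). Gpx2 was a lower one in each of these 5 types. At fractionated day 7 against control, blood endothelial cells had 0 higher (11.5%) and 1 lower (11.8%), mural cells 2 higher (9.74%) and 1 lower (10.4%), and macrophages 0 higher (14.3%) and 1 lower (17.2%), and Hmox1 was the lower gene in all 3. After the single dose against control, fibroblasts had 2 higher (10.9%) and 2 lower (12.9%), blood endothelial cells 3 higher (7.7%) and 1 lower (13.9%), mural cells 2 higher (7.74%) and 0 lower (9.85%), and macrophages 2 higher (13.9%) and 2 lower (16.2%). Fractionated day 7 against the single dose gave 0 higher (12.5%) and 2 lower (8.44%) in blood endothelial cells, 1 higher (10.2%) and 3 lower (12%) in mural cells, and 1 higher (14.2%) and 5 lower (13.3%) in macrophages, whose median ratio was -1.09 beside 0.00 over all genes. In the macrophage comparison that median is the ratio of Gpx2, which is among the 5 lower. Slc7a11 and Gsr rest there on 1 and 3 UMIs at fractionated day 7, with intervals that include no difference. These macrophage sums held 149 infiltrating and 157 resident cells at fractionated day 7, and 2293 and 222 after the single dose. The part of that difference was not tested. Fractionated day 14 against fractionated day 7 gave 1 higher (13.3%) and 1 lower (11.6%) in blood endothelial cells, 2 higher (15.2%) and 2 lower (7.83%) in mural cells, and 1 higher (16.9%) and 2 lower (15.5%) in macrophages, and Hmox1 was among the higher genes in all 3, by 3.46, 3.41 and 3.48. The libraries of that comparison lie on opposite sides of the immediate-early split, and its part was not tested.

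Gpx2 levels outside the epithelium were set beside the epithelial RNA of each library. A free-RNA level was computed for each cell type as the epithelial Gpx2 level multiplied by the ratio of epithelial marker CPM in that type to that in the epithelium. Fibroblasts held Gpx2 at 5.09 CPM beside a free-RNA level of 5.25 CPM at fractionated day 14, at 70.4 beside 58.2 CPM at fractionated day 7, at 193 beside 146 CPM in the single-dose library and at 45.2 beside 37.3 CPM in the control. Across non-epithelial types the ratio of the Gpx2 level to the free-RNA level lay between 0.244 and 1.84. The part of free RNA in these Gpx2 levels was not tested. The same holds for the 2-fold calls of Gpx2 outside the epithelium, among them -3.15 in fibroblasts at fractionated day 14 against control. Slc7a11 outside the epithelium stood at 2.66 CPM beside a free-RNA level of 1.66 CPM in single-dose fibroblasts and at 3.37 beside 1.25 CPM in blood endothelial cells. In single-dose macrophages it stood at 7.09 CPM (95 UMIs) beside a level of 1.30 CPM, and in neutrophils at 38.8 CPM beside 3.89 CPM. The log2 ratio of Slc7a11 to control after the single dose was 1.77 in blood endothelial cells and 2.86 in macrophages. At fractionated day 7 it was 0.25 and 0.62 in these types. These ratios rest on few UMIs in at least 1 library, and the part of free RNA in them was not tested.

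**Figure D5:**
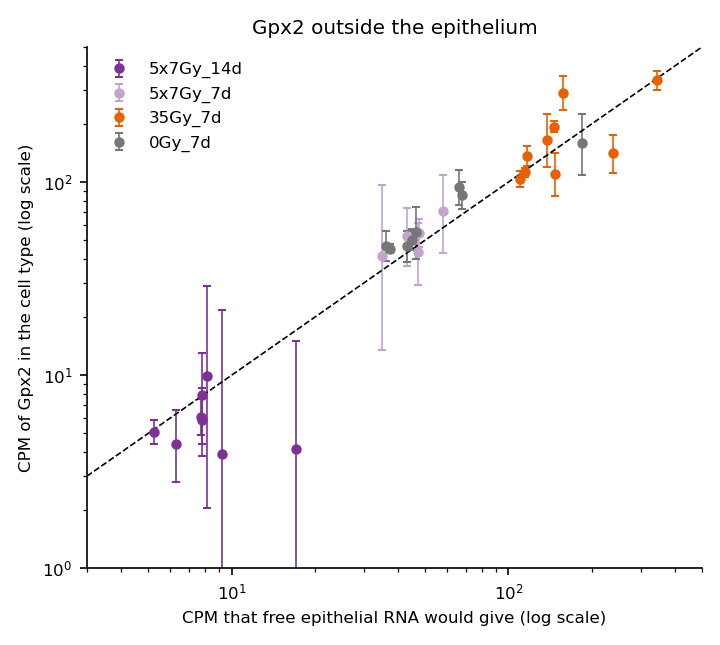
Gpx2 in non-epithelial cell types (CPM, log scale, y axis) against the level that free epithelial RNA would give (CPM, log scale, x axis), each point 1 cell type in 1 library with its exact 95% Poisson interval. The dashed line marks equal values. Points lie on both sides of the line, at ratios of the Gpx2 level to the free-RNA level between 0.244 and 1.84.

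The genes most like each member were taken over 28 sums of at least 100 cells, by Pearson correlation of log2(CPM + 1) among 7934 genes. These sums share libraries and depth, and the values are descriptions. Gpx2 was most like Sult2b1, Lypd3 and Cnfn (r = 0.98, 0.98 and 0.97), and Nqo1 most like Hsd17b2, Ehf and Txn1 (0.89, 0.89 and 0.88). Genes like Hmox1 included Cd83 and F13a1 (0.83 each), and Txnrd1 was most like Nfkb2 (0.82). Gclm was most like Srpk2 (0.89), Gclc like Rps18l1 (0.79), Gsr like Rab5if (0.82) and Mgst3 like Ajuba (0.86).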

How the data were processed

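Rat esophagus was profiled in 4 libraries, 1 pool of 5 rats per group. The authors deposited raw UMI counts per gene and barcode, with no normalization, per the file headers and values. Counting used Cell Ranger 5.0.0, and mRatBN7.2 or rn7 is listed as the build, per the submitters' processing notes, with no release of the annotation stated. Cells with at least 500 UMIs, 200 genes and at most 20% mitochondrial UMIs were kept, and doublets were called with Scrublet in scanpy 1.11.5 at an expected 0.8% per 1000 cells and left out. It marked 2.15% to 4.12% of cells, below the expected 8.37% to 10.0%, so doublets may remain.

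Cells were assigned to 1 of 15 types one by one from the mean scaled level of its markers (score of at least 0.1, at least 2 markers detected, a lead of 0.05 over the next type), with these limits set after the data were seen. Of 136 marker symbols 126 matched, and of 123 pathway symbols 115. Cells within a doubled margin made up 0.791% of epithelial cells and 20.1% of glia. Names of types stand for cells like that type. UMIs of features sharing a symbol were summed. Levels are CPM of UMIs summed per library and type with at least 50 cells. Ratios, for at least 200 cells in both libraries, have exact conditional binomial 95% intervals, and levels exact Poisson ones, for counting error only. The code was tested on simulated counts. Python 3.11.15, numpy 2.4.6, scipy 1.17.1 and pandas 2.3.3 were used.

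The members and the gene lists were chosen with earlier results of these data known. The 9 members were all named. From each pathway list up to 3 genes per comparison and cell type, with at least 50 UMIs and the interval bound farthest from no change, could be named, and for each member the 3 most correlated genes. Alternatives were a stricter cell filter, doublets kept, median-of-ratios scaling, equal weight per cell, another UMI minimum, a wider margin between scores and the epithelium without cycling cells. Promoter windows came from RefSeq (GRCr8). Some genes that this rule names are not reported here.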

Additional observations from a re-analysis of the deposited data

Results flagged for a closer look

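In blood endothelial cells Hmox1 differed from the control in opposite directions at the 2 times after fractionated exposure. At fractionated day 14 it stood at 47.1 CPM (682 UMIs), against 21.1 CPM (107 UMIs) in the control, a log2 ratio of 1.16 (95% interval for counting error 0.87 to 1.47). At fractionated day 7 it stood at 4.29 CPM (11 UMIs), against the same control, a ratio of -2.29 (-3.34 to -1.40). With 1 library per group, the difference between the times was not tested. Beside these values, the 15 immediate-early and heat-shock genes summed to 38288 CPM in these cells at fractionated day 14, 1238 CPM at fractionated day 7 and 41807 CPM in the control. The 10 macrophage markers summed to 251, 64.8 and 50.2 CPM there in the same order.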

How the results depend on the processing

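With 1 library per group, no replicate could be left out, and the intervals cover counting error only. No paired analysis was possible because each group is 1 library and no test was made. No ratio reported past 2-fold changed sign under an alternative, while some ratios and medians nearer 0 did. For the 9 genes in the epithelium after the single dose against control, the median ratio of -0.75 was -0.62 with doublets kept, -0.90 under median-of-ratios scaling, -0.52 with equal weight per cell and -0.68 without cells holding a UMI of Mki67 or Top2a. The count of 1 lower there was 2 with the stricter cell filter, 4 under median-of-ratios scaling, 2 with equal weights and 0 without cycling cells. For fractionated day 7 against the single dose in the epithelium, the median of -0.10 was -0.33 with doublets kept, -0.045 under median-of-ratios scaling and -0.35 with equal weights. The count of 2 lower there was 1 with equal weights and 1 without cycling cells, which also left 0 higher, and without cycling cells the 2 lower at fractionated day 7 against control were 1. With equal weights the median at fractionated day 14 was 0.050 in fibroblasts against control, and -0.14 in blood endothelial cells against fractionated day 7, where it was 0.12 as reported. Equal weights also took Gsr in glia at fractionated day 14 against control, from few UMIs, to -2.27, beside 0.07 as reported. Median-of-ratios scaling moved the median of all genes by up to 0.22. Leaving out Gpx2 outside the epithelium, chosen after seeing the data, moved 10 of 36 counts and 0 of 18 medians beyond the limits set. Among ratios of single genes, 58 of 203 moved beyond their counting interval with equal weights and 22 of 203 under median-of-ratios scaling, as did 24 of 45 in the epithelium without cycling cells. Depth limits Slc7a11 and Gsr outside the epithelium and Hmox1 at fractionated day 7, which rest on few UMIs.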

Other observations

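In macrophages and monocytes, other genes of haem and iron handling and of NRF2 control also differed between the single-dose library and the control. Bach1, which encodes a repressor of Hmox1, stood at 30.2 CPM (405 UMIs) after the single dose and 3.92 CPM (4 UMIs) in the control, a log2 ratio of 2.95 (95% interval for counting error 1.58 to 4.83). Nfe2l2 stood at 112 CPM after the single dose and 354 CPM in the control (-1.66, -1.82 to -1.49). Slc40a1, the iron exporter ferroportin, stood at 1.42 CPM (19 UMIs) after the single dose and 38.2 CPM (39 UMIs) in the control (-4.75, -5.63 to -3.93), and Blvrb, a biliverdin reductase, at 40.7 CPM and 156 CPM (-1.94, -2.19 to -1.67). These sums hold different cells, with 2293 of 2591 carrying infiltrating markers after the single dose and 202 of 251 carrying resident markers in the control, and the part of that difference was not tested. Across the 9 pathway lists, 18 genes were higher and 24 lower of 92 that passed, beside 13.9% and 16.2% of all genes.

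In stromal cells after the single dose, Sod2 and Mgst1 stood above control while Mgst3, as given above, stood below it. Sod2 was at 5491 CPM after the single dose and 955 CPM in the control in fibroblasts (2.52, 2.50 to 2.55), and at 2812 CPM and 511 CPM in blood endothelial cells (2.46, 2.40 to 2.52), whereas in the epithelium it was 363 CPM and 453 CPM. Of the 4 listed genes of superoxide and peroxide removal, 1 was higher and 0 lower in fibroblasts (10.9% and 12.9% of all genes). Their median ratio was -0.26, beside 0.05 over all genes. In blood endothelial cells 1 was higher and 1 lower (7.7% and 13.9%), with a median of -0.36 beside -0.003. Mgst1, a membrane-bound glutathione transferase, was at 171 CPM in single-dose fibroblasts and 18.2 CPM in control fibroblasts (3.24, 3.08 to 3.40). At fractionated day 14 Ephx1, the microsomal epoxide hydrolase, was at 306 CPM, against 48.0 CPM in the control in blood endothelial cells (2.67, 2.49 to 2.86), and at 60.9 CPM, against 14.7 CPM in the control, in fibroblasts (2.05, 1.90 to 2.21).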
